A study of Mus musculus with 25 samples.

Results

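Lung mesenchymal cells that had lost Fas in Col1a1-expressing cells were compared, 3 weeks after bleomycin, with the same kind of cells from uninjured lungs. The comparison took in all bulk RNA-seq libraries labelled Week3 FasDel (n = 4, written Fas-/- here) and all labelled Control (n = 4, written naive here), so 8 of the 20 bulk libraries and of the 25 samples of the series. Mice of both groups carried a Col1a1-driven, tamoxifen-inducible Cre (Col1-CreERT2) and Fas alleles with loxP sites (Fas fl/fl). Fas-/- mice received intratracheal bleomycin and then repeated tamoxifen, begun in the first week and continued as fibrosis developed, and were sampled at week 3. The naive mice received no bleomycin, and whether they received tamoxifen or its corn oil vehicle was not stated. The effects of bleomycin, of tamoxifen and of the deletion therefore cannot be told apart in this comparison. The 4 week 3 libraries of mice given bleomycin and corn oil (Fas+/+, same alleles, not recombined) are given beside it, and the direct test of Fas-/- against Fas+/+ is the one that separates the tamoxifen arm from injury. Recombination reaches only cells that use the Col1a1 promoter, so cells in the sort that did not use it may have kept Fas. In its single-cell data the paper reports that fewer Fas-/- cells expressed the deleted exon. It describes the deletion as similar across the cell clusters, and a minority of cells still expressed the exon. The age and sex of the mice were not given, and the study's methods count individual animals as replicates, although the labels do not tie each library to an animal.

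Fas is a death receptor of the TNF receptor superfamily. When Fas ligand binds it, the adaptor FADD recruits caspase-8, which cleaves effector caspases directly or through Bid and the mitochondria, while cFLIP holds caspase-8 back. After bleomycin, an agent that breaks DNA, lung fibroblasts lay down collagen and other matrix and pass through a myofibroblast-like state before fibrosis resolves. The cells sorted here were the live lineage-negative fraction, depleted of CD45+ leukocytes, CD31+ endothelial cells and CD326+ epithelial cells, which holds fibroblasts, pericytes and smooth muscle cells. Bulk RNA cannot tell fewer cells of a type from less RNA per cell.

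The 8 libraries held between 19169028 and 25189096 counts, and levels below are in CPM, counts scaled to the library total with TMM factors. Mesenchymal identity genes were high in every library: the 12 of them summed to 28513 to 41755 CPM in naive and 33229 to 71153 CPM in Fas-/-. Markers of other cell types differed between the groups, both of cells that the sort should have removed (endothelial, epithelial and leukocyte) and of cells that it did not target. The summed level of 24 blood endothelial markers was 343, 849, 469 and 414 CPM in the naive libraries and 2165, 1276, 1359 and 15619 CPM in Fas-/- replicates 1 to 4. Pecam1 (CD31) was at 18.3, 54.2, 26.7 and 23.6 CPM and then 183, 104, 111 and 1483 CPM, so replicate 4 held far more than the others. 22 of 24 endothelial markers were higher in Fas-/- with all libraries and 7 without Fas-/- replicate 4. Alveolar epithelial markers summed to 229 to 289 CPM in naive and 533 to 822 CPM in Fas-/- (16 of 20 higher, 10 with the endothelial score, with Sftpc at 5.45 and Epcam at 2.18 on the log2 scale). Leukocyte markers were at low levels but mostly rose: 11 of 14 tested were higher, with a median log2 difference of 3.19. They summed to 9.86 to 13.8 CPM in naive and 51.2 to 188 CPM in Fas-/-, and Ptprc (CD45) was at most 1.58 CPM in any library. Lymphatic markers (6 of 7) and platelet genes (8 of 10, 4 with the endothelial score) were higher and 10 of 11 red cell genes were lower. Mesothelial (9 of 11, 6 without naive replicate 2) and pericyte markers (8 of 12) were lower. Nerve and glial markers went both ways (2 higher, 3 lower of 8), and 1 of 5 airway markers was lower. The part that these cells had in the results below was not tested. Replicate 4 was left out, and the endothelial score of each library, the mean log2 CPM of the 24 endothelial markers, was added to the fit. The summed endothelial level did not overlap between naive (343 to 849 CPM) and Fas-/- (1276 to 15619 CPM). Results with the score therefore compare the groups at a level that they did not share, and cannot separate endothelial RNA from bleomycin. Without 1 library, the call was lost for Pecam1 (without Fas-/- replicate 4, adjusted p 0.0794) and Epcam (without naive replicate 4 or Fas-/- replicate 4, adjusted p up to 0.0586).

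**Figure D1:**
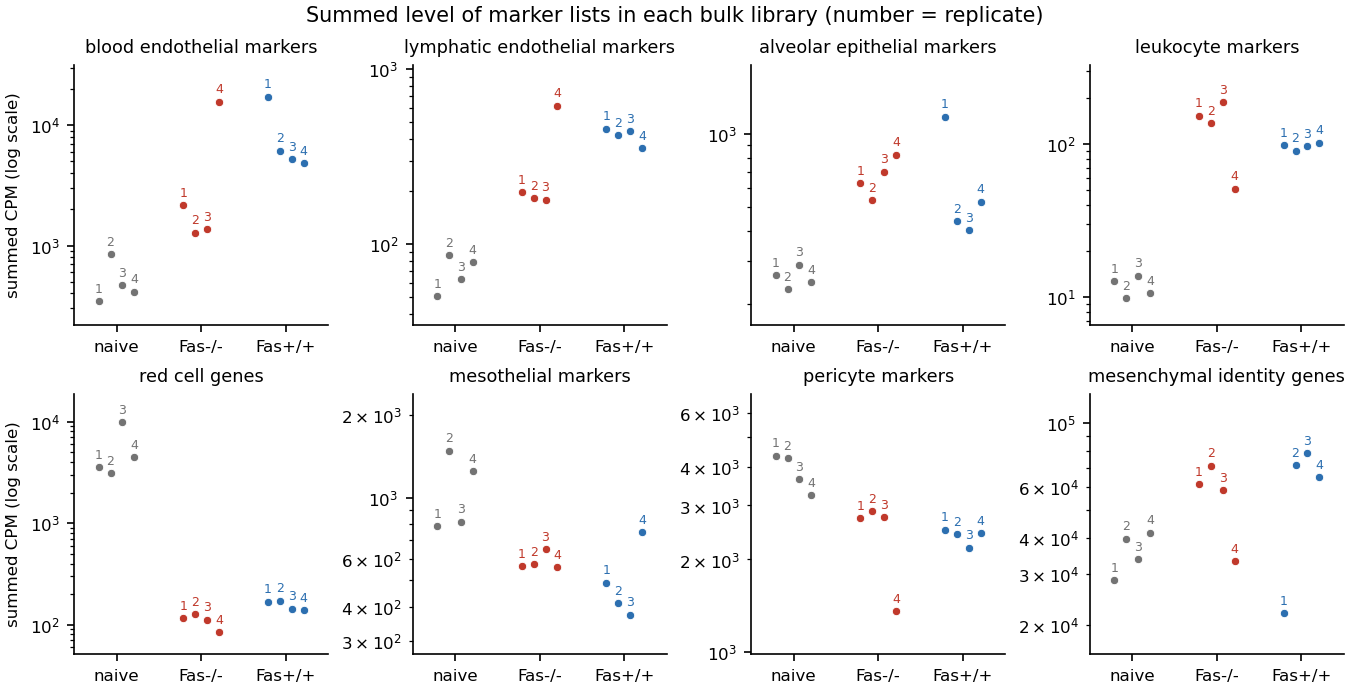
Summed CPM of marker lists (y axis, log scale) in each naive (grey), week 3 Fas-/- (red) and week 3 Fas+/+ (blue) bulk library, 1 point per library with its replicate number. Fas-/- replicate 4 stands above its group for blood endothelial markers, at 15619 CPM against 1276 to 2165 CPM, and below it for leukocyte markers.

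Fas-/- replicate 4 also stood apart over all genes. The median SD of a gene over the Fas-/- libraries was 0.21 on the log2 scale, against 0.11 over replicates 1 to 3 and 0.17 over the naive libraries. It separated from its group on the second principal component, which carried 17.4% of the variance, while the first (69.9%) separated naive from bleomycin libraries. Among the Fas+/+ libraries replicate 1 stood apart in a like way: its endothelial sum was 17221 CPM, against 4850.2 to 6154 CPM in the other 3, and its fibrillar collagen sum was 12557 CPM, against 39801 to 50804 CPM. Counts of list members below rest on all libraries. Many that moved without 1 library, with the endothelial score or in another fit are given beside them, but not all.

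Of 15773 genes tested, 5045 (32%) differed between Fas-/- and naive at an adjusted p of at most 0.05: 2713 (17.2%) were higher in Fas-/- and 2332 (14.8%) lower. The counts of list members below are to be read beside these shares. The 4 Fas-/- libraries all lay above the 4 naive libraries for 2555 genes (16.2%) and all below for 2352 (14.9%). The larger changes were mostly increases: among the called genes, 1378 were higher and 468 lower by at least 1 on the log2 scale. The increases with the smallest p were P2rx4, an ATP-gated channel, Ppm1h, Igfbp2, Ass1, Zswim6, Slc15a3, Atp8b1, Piezo2, Zdhhc20 and Tgfb1. P2rx4 was at 48.5, 47.3, 49.0 and 50.5 CPM in naive and 81.6, 84.2, 78.0 and 89.2 CPM in Fas-/- (log2 difference 0.77 ± 0.05 SE, adjusted p = 2.4e-07). Piezo2, a mechanically gated channel, was at 11.1, 16.1, 10.7 and 15 CPM and 121, 152, 123 and 200 CPM (3.49 ± 0.30). In neither gene did Fas-/- overlap naive, which the choice by smallest p favors. Their means in Fas+/+ (73.6 CPM for P2rx4, 202 CPM for Piezo2) also lay above every naive library.

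Among genes with a mean of at least 10 CPM in the higher group and no overlap, the largest increases were Ptprn, Ctss, Lcn2, Tfap2a, Saa3, Depp1, Grem1, Lrg1, Slc34a2 and Lyz2, with log2 differences from 5.76 to 7.55. All 10 were at most 2.44 CPM in each naive library. Slc34a2 and Lyz2 belong to the alveolar epithelial markers described above, and Lyz2 also to the leukocyte markers. Whether their rise came from other cells in the sort was not tested. Several of them differed widely within Fas-/-. Ptprn was at 30.4, 44.2 and 31.5 CPM in replicates 1 to 3 and at 4.08 CPM in replicate 4, and Depp1 was at 9.02 to 22.4 CPM in replicates 1 to 3 and at 129 CPM in replicate 4. The largest decreases by both rules were the hemoglobin genes and Alas2, the erythroid heme synthesis enzyme: Hbb-bs was at 1739, 1479.9, 4946 and 2168 CPM in naive and 11.9, 9.89, 9.98 and 8.51 CPM in Fas-/-. Reads of Hba-a1 and Hba-a2 cannot be assigned with certainty, since the genes are nearly identical. Outside the red cell genes, Lsamp (-2.06) and Sost (-2.0) were among the largest decreases on the log2 scale, and Slc25a29, Agfg2, the predicted gene Gm13375, Osbpl1a and Pank1 the smallest p among decreases.

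The deleted gene itself was not lower. Fas was at 23.9, 21.1, 21.9 and 21.4 CPM in naive and 42.3, 35.4, 34.4 and 64.9 CPM in Fas-/-, so all 4 Fas-/- libraries lay above all naive ones. The log2 difference was 1.0 ± 0.20 SE (adjusted p = 0.0013), and an exact two-sided permutation over the 8 log2 levels gave p = 0.0286, the smallest that 4 against 4 libraries allow. In Fas+/+ the mean was 41.0 ± 11.3 CPM (SD, n = 4), and Fas-/- and Fas+/+ differed by 0.11 ± 0.20 SE (adjusted p = 0.91). The count table holds 1 value per gene, so reads of the exon between the loxP sites cannot be separated from those of the others, and this total does not check the deletion. The paper checked it on that exon in its single-cell data and reports reduced expression in Fas-/- cells. It also reports recombination at the locus by PCR on tail tip fibroblast DNA of tamoxifen-treated mice.

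Genes of the Fas pathway and extrinsic apoptosis were mostly higher after bleomycin. Of 22 tested, with Fas itself counted, 14 were higher in Fas-/- than naive and 2 lower. The median log2 difference was 0.65, against 0.02 over all genes tested. Without Fas-/- replicate 4, 12 were higher, and with the endothelial score 11. Casp8, the initiator caspase, rose from 10.6 ± 1.18 to 24.2 ± 7.46 CPM (SD, n = 4; 1.20 ± 0.20 SE, adjusted p = 3.7e-04). Bid (1.76), which links caspase-8 to mitochondria, Ripk3 (2.31), a kinase of necroptosis, and the TRAIL receptor Tnfrsf10b (2.25) rose with it on the log2 scale. The decoy receptors Tnfrsf23 (2.34) and Tnfrsf26 (3.74) also rose. The TRAIL gene Tnfsf10 was at 4.87, 12.1, 6.02 and 4.63 CPM in naive and 30.4, 17.3, 19.3 and 235 CPM in Fas-/- (3.44 ± 0.97 SE), highest in the replicate with the most endothelial RNA, and with the endothelial score in the fit its difference was -0.10 and not called. In Fas+/+ the median of the list against naive was 0.78, and none of the 22 genes passed the test of Fas-/- against Fas+/+. Fas ligand (Fasl) had too few counts to be tested. Single libraries decided the call of Tnfsf10 (without Fas-/- replicate 4, adjusted p 0.111).

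Of 20 BCL2 family and inhibitor-of-apoptosis genes, 7 were higher and 2 lower, with 4 lower without Fas-/- replicate 4 and 0 with the endothelial score. Both directions held genes that promote death and genes that oppose it. The effectors Bax (0.61) and Bak1 (0.76), the BH3-only genes Pmaip1 (2.94) and Bbc3 (0.85) and the inhibitor Birc3 (0.95) were higher, and BH3-only Bmf (-0.76) and antiapoptotic Bcl2 (-0.28) were lower. Birc5 (survivin), also a mitosis gene, did not pass (1.41 ± 0.56 SE, adjusted p = 0.064). Among p53 targets and cell-cycle inhibitors, 14 of 22 were higher and 2 lower (median 0.70). Cdkn1a, which encodes p21, was at 42.4, 62.0, 55.9 and 76.1 CPM in naive and 189, 174, 183 and 223 CPM in Fas-/- (1.70 ± 0.16 SE, adjusted p = 3.1e-06), with no overlap and a narrow range. Mdm2, the ubiquitin ligase that limits p53, rose from 38.0 ± 1.79 to 65.2 ± 1.85 CPM. The INK4 inhibitors Cdkn2a (3.79) and Cdkn2b (2.33) and the kinase Plk2 (1.58) rose too. In Fas+/+ the median of the list was 0.76, with Cdkn1a at 211 ± 8.93 CPM and Mdm2 at 66.1 ± 5.67 CPM.

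**Figure D2:**
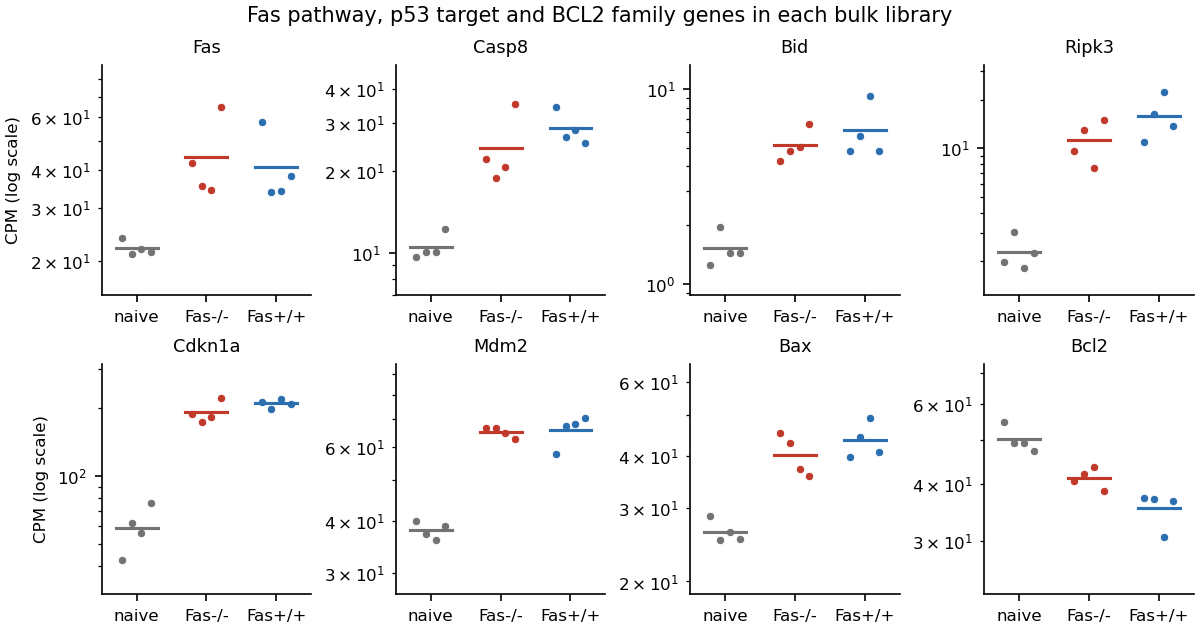
CPM (y axis, log scale) of Fas, Casp8, Bid, Ripk3, Cdkn1a, Mdm2, Bax and Bcl2 in each naive (grey), Fas-/- (red) and Fas+/+ (blue) bulk library; bars are group means. Fas lies between 21.1 and 23.9 CPM in naive and between 34.4 and 64.9 CPM in Fas-/-, and Cdkn1a between 42.4 and 76.1 CPM and between 174 and 223 CPM.

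Genes induced by interferon were nearly all higher in Fas-/- than in naive. Type I interferon acts through a transcription factor complex that binds the interferon-stimulated response element in promoters and switches on antiviral genes. 30 of 33 interferon-stimulated genes were higher in Fas-/- than naive and 1 (Ifit2, -0.33) was lower, with a median log2 difference of 1.43. Without Fas-/- replicate 4 the counts were 29 and 0, and with the endothelial score in the fit 27 and 0. The 2 other genes, Gbp2 (0.30) and Rsad2 (0.51), did not pass. The largest differences were in the 2'-5'-oligoadenylate synthetase genes Oas1a (3.70), Oas2 (2.80) and Oasl1 (2.79), in Ifi44 (3.28) and in the chemokine Cxcl10 (3.09). Isg15, a ubiquitin-like protein, was at 6.12, 4.39, 4.30 and 5.41 CPM in naive and 25.9, 30.2, 23 and 22.6 CPM in Fas-/- (2.33 ± 0.32 SE, adjusted p = 6.5e-05). All 4 Fas-/- libraries, replicate 4 included, lay above the naive libraries for 30 of the 33 genes. The call did not hold without 1 library for Ifit2 (without naive replicates 1, 2, 3 or 4 or Fas-/- replicates 1, 3 or 4, adjusted p up to 0.0964).

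The promoters of 4 of these genes are shown because they carry the response element and because these genes stayed apart in the further comparison with Fas+/+ or, for Isg15, define the list. Sequences are the RefSeq promoters of GRCm38.p6, from 250 bases before to 50 after the start site, in lower case with each match to the letters GAAA, any 2 bases and GAAA, on either strand, in capitals. Gbp3, a guanylate-binding GTPase, lies on the plus strand (chr3:142559794-142560093) and has 2 overlapping matches. Ifit3 (chr19:34583279-34583578, plus strand), an RNA-sensing adaptor, has 2 separate matches. Isg15 (chr4:156200769-156201068, minus strand) has 3 overlapping matches, and Stat2 (chr10:128270248-128270547, plus strand) has 1.
Gbp3: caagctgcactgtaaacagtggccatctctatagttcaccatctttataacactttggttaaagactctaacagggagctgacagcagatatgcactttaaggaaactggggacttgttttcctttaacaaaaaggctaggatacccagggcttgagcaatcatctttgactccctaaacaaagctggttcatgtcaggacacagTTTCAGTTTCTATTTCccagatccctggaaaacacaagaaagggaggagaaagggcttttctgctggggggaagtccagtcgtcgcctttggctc
Ifit3: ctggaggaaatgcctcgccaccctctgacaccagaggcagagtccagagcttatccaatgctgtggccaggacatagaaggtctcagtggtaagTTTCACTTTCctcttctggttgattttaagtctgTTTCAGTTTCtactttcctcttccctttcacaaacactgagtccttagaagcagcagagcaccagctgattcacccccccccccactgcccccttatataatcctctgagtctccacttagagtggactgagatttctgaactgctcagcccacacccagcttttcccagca
Isg15: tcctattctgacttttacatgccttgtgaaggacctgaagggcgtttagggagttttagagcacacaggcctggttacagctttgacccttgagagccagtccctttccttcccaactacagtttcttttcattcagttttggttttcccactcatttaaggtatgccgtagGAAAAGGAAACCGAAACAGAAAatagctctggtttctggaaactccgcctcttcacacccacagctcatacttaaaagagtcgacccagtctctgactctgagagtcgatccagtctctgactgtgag
Stat2: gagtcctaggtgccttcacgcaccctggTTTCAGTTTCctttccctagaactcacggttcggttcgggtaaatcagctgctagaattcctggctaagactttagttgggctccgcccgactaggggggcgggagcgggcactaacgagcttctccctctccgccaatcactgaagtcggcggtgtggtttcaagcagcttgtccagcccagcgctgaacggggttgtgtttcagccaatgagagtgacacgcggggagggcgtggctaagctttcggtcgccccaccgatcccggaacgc

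Of the 30 interferon-stimulated genes that were higher, 23 had a promoter in the RefSeq table, and 15 of the 23 (65.2%) held at least 1 match, against 3.99% of the 27025 genes with a promoter in the table. Ifit2, the gene that was lower, held none, and both genes that did not pass held one. Irf7 and Oasl2, which were higher, had no match in this window, which says only that these letters are not in it.

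The interferon genes were also those that most often set Fas-/- apart from Fas+/+. Over all genes, that test called 27 of 15773 (0.171%), 26 of them higher in Fas-/-, and 7 of the 27 were among the 33 genes of the list, among them Stat2, Irf7, Usp18, Oasl2, Ifit3 and Gbp3. These genes, and Ifi27l2a, which is in no list here, are described because they passed this test, so they were chosen after their values were seen. Irf7, the transcription factor that amplifies the response, was at 19, 19, 12.4 and 16.5 CPM in naive, 64.3, 71.9, 61.1 and 61.7 CPM in Fas-/- and 25.9, 30.2, 34.7 and 30.1 CPM in Fas+/+. Fas-/- exceeded naive by 1.95 ± 0.19 (SE) and Fas+/+ by 1.10 ± 0.19 on the log2 scale (adjusted p = 4.1e-06 and 0.023). Gbp3 was at 26.7, 27.5, 25.9 and 23.8 CPM in naive, 53.5, 52.2, 50.5 and 60.3 CPM in Fas-/- and 32.2, 27.3, 23.9 and 29.1 CPM in Fas+/+, so Fas+/+ overlapped naive and Fas-/- did not. Ifit3 showed the same order, with 31.9, 25, 15.6 and 25 CPM in naive, 69.3, 73.9, 64.2 and 63.6 CPM in Fas-/- and 22.3, 32.4, 29.5 and 35.5 CPM in Fas+/+; reads of Ifit3 may be shared with its near copy Ifit3b. Ifi27l2a was at 41.2, 27.7, 19.7 and 34.2 CPM, 92.2, 92.8, 86.1 and 60.1 CPM and 18.5, 28.7, 31.1 and 31.7 CPM. Stat2 exceeded Fas+/+ by 0.76 ± 0.14, Usp18, which damps the receptor, by 1.05 ± 0.18, and Oasl2 by 1.03 ± 0.18.

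Against naive, the median log2 difference of the whole list was 0.50 in Fas+/+ and 1.43 in Fas-/-. Under all 20 settings tried, each of the 7 genes named for the test of Fas-/- against Fas+/+ (Ifi27l2a included) had its higher level in Fas-/-, by 0.63 to 1.72 on the log2 scale. The 7 were chosen on these same libraries, so that direction was largely fixed by the choice. Their calls depended on single libraries: 7 of 7 passed with all libraries, 0 without Fas+/+ replicate 2 or 3 or Fas-/- replicate 1, 4 without Fas-/- replicate 2, 3 without Fas-/- replicate 3, and 5 without naive replicate 4, with a replicate block or with library totals alone. The summed level of blood endothelial markers was 4850.2 to 17221 CPM in the Fas+/+ libraries (highest in replicate 1), above that of Fas-/- replicates 1 to 3, and with the endothelial score in the fit 6 of the 7 passed. In edgeR's quasi-likelihood test no gene in the whole table passed without Fas+/+ replicate 2 or 3, where 1017 and 1146 genes had an unadjusted p of at most 0.05, against 1359 with all libraries.

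**Figure D3:**
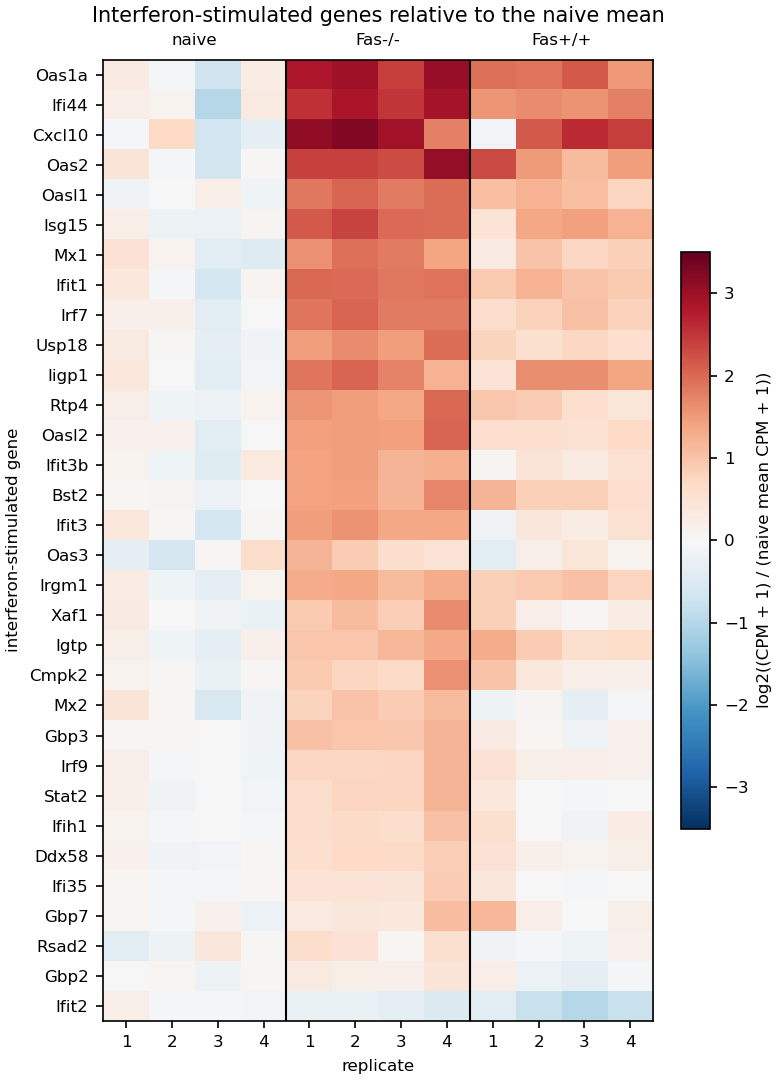
Log2 ratio of CPM to the naive mean (color scale, 1 CPM added) for 32 of the 33 interferon-stimulated genes (rows, ordered by the Fas-/- difference) in the naive, Fas-/- and Fas+/+ bulk libraries (columns). The 4 Fas-/- columns are alike, and 30 of the 33 genes were called higher than naive in Fas-/-, against 17.2% of all genes.

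Class I antigen presentation genes, which interferons also induce, were higher in both bleomycin groups. 15 of 20 were higher in Fas-/- and 0 lower (median 1.08), and 9 were higher with the endothelial score in the fit. B2m, the light chain of class I, was at 486, 469.7, 420.0 and 539 CPM in naive and 1063, 1025, 962 and 1282 CPM in Fas-/- (1.18 ± 0.13 SE, adjusted p = 1.3e-05). The peptide transporter Tap1 (1.27), the immunoproteasome subunit Psmb8 (1.44) and Nlrc5 (3.51), the class I transactivator, rose on the log2 scale. H2-Q6 and H2-Q7 (3.46 and 3.49) rose as well but are near copies whose reads may be split. Replicate 4 was the highest Fas-/- library for each of these genes (Nlrc5 was at 19.5, 21.7, 20.5 and 67.9 CPM), and none of the 20 passed against Fas+/+, where the median against naive was 0.79.

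Of 27 chemokine and cytokine genes, 20 were higher and 0 lower (median 1.5 in Fas-/- and 1.89 in Fas+/+, each against naive). Without naive replicate 1 or Fas-/- replicate 2 or 3, 16 were higher. Ccl2, which recruits monocytes, was at 2.63, 3.35, 3.68 and 3.85 CPM in naive and 28.7, 31.7, 24 and 13.9 CPM in Fas-/- (2.86 ± 0.58 SE, adjusted p = 0.0014). Cxcl12, the ligand of CXCR4, was at 203, 214, 215 and 202 CPM and 456, 433, 372 and 1105 CPM (1.5 ± 0.27 SE), already separate in replicates 1 to 3 and highest in replicate 4. Il1rl1, the receptor of IL-33 (4.24), and the CXCR3 ligand Cxcl9 (3.36) also rose, as did Cxcl5 (3.26) and Cxcl15 (5.81), which were at most 0.26 CPM in the naive libraries. In the acute-phase and complement list, 12 of 20 were higher and 1 lower (median 0.81). In Fas+/+ 8 were higher and 4 lower than naive (median 0.41). Saa3, a serum amyloid A of injured tissue, was at 1.59, 1.32, 2.44 and 1.90 CPM in naive, 134, 177, 130.4 and 159 CPM in Fas-/- and 9.47, 94.0, 262 and 97.2 CPM in Fas+/+. Lcn2, an iron-chelating lipocalin, was at 0.345, 0.599, 0.143 and 1.3 CPM, 67.5, 98.4, 65.3 and 102 CPM and 7.85, 38.5, 117 and 53.8 CPM. Both were high in every Fas-/- library, replicate 4 included, whereas Fas+/+ replicate 1 was far below the rest of its group. Haptoglobin (Hp, 5.14), Serpina3g (4.91), Saa1 (3.64) and Serpina3n (1.67) rose too. Complement C3 did not pass, at 3572, 4934, 3438 and 5484 CPM in naive and 5321, 5385, 5488 and 5218 CPM in Fas-/- (0.30 ± 0.18 SE, adjusted p = 0.22).

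The profibrotic fibroblast markers had some of the largest differences. 8 of 11 were higher in Fas-/- and 1 lower, with a median log2 difference of 2.03 (2.93 in Fas+/+). Leaving out naive replicate 1 gave 6 higher, and leaving out Fas-/- replicate 4 gave 8. Cthrc1, a secreted protein of activated fibroblasts, was at 0.388, 0.519, 0.287 and 0.736 CPM in naive, 32.4, 36.8, 24.4 and 12.6 CPM in Fas-/- and 5.84, 65.1, 64.8 and 46.2 CPM in Fas+/+ (5.76 ± 0.75 SE against naive, adjusted p = 4.3e-05). Grem1, which binds and blocks BMPs, was at 0.258, 1.52, 0.764 and 1.77 CPM, 90.7, 117, 89.9 and 19.1 CPM and 5.15, 127, 139 and 76.7 CPM. In both genes Fas-/- replicates 1 to 3 were close together and replicate 4 was lowest, yet above every naive library. Lrrc15, at 9.36, 9.02, 8.03 and 1.99 CPM in Fas-/- and 0.905, 1.40, 3.34 and 1.34 CPM in naive, overlapped through replicate 4 but passed (2.03, adjusted p = 0.021). Runx1 (2.83), the metalloprotease Adam12 (2.59) and the activin A subunit Inhba (2.22) rose, with no overlap. None of these genes passed against Fas+/+. Calls that were lost when 1 library was left out were those of Lrrc15 (without naive replicates 1, 2 or 4 or Fas-/- replicates 1 or 2, adjusted p up to 0.0682).

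**Figure D4:**
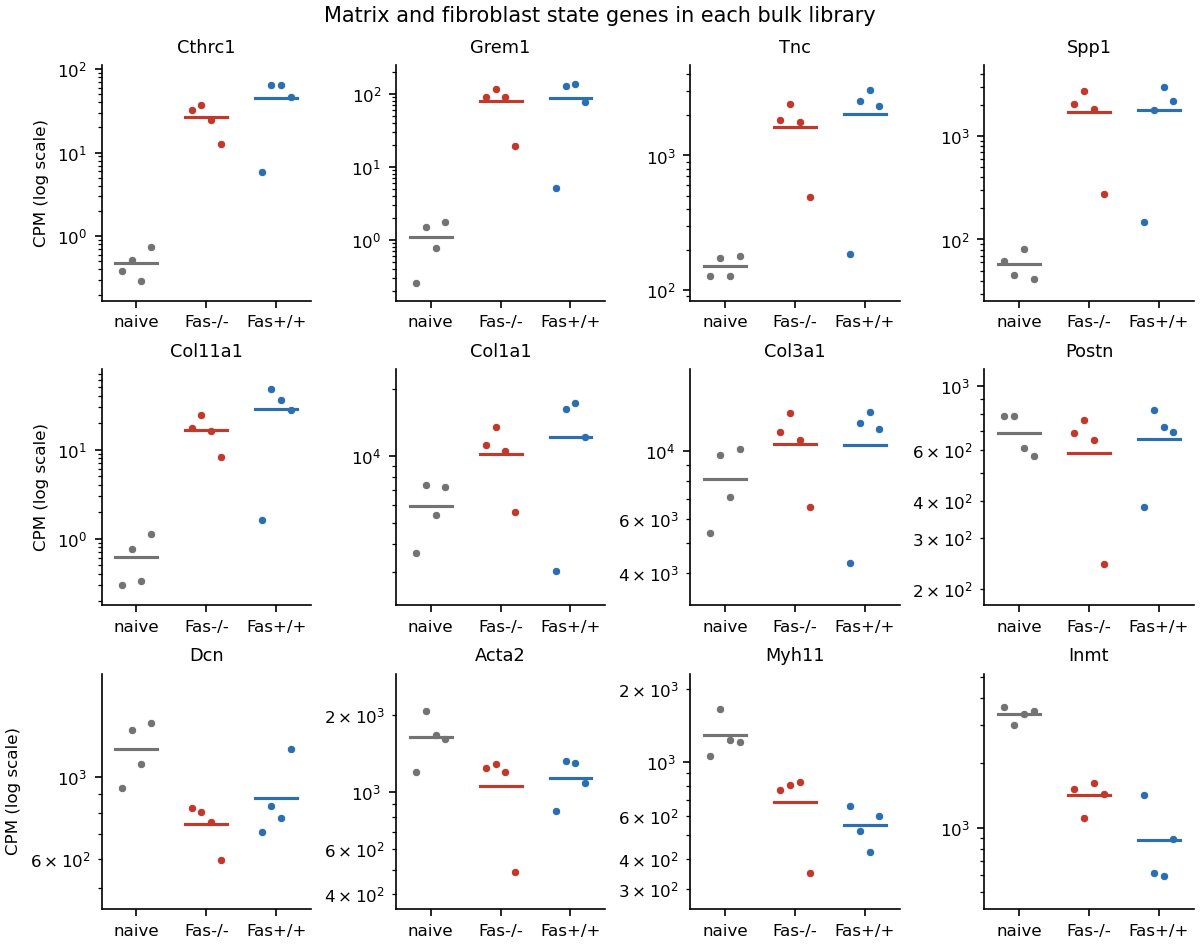
CPM (y axis, log scale) of 12 matrix and fibroblast state genes in each naive (grey), Fas-/- (red) and Fas+/+ (blue) bulk library; bars are group means. Cthrc1 and Grem1 are at most 1.77 CPM in the naive libraries and at least 12.6 CPM in the Fas-/- libraries, while Col1a1, Col3a1 and Postn overlap.

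The main interstitial collagens, in contrast, did not pass the test with all libraries. Col1a1 was at 3647, 7387, 5413 and 7229 CPM in naive and 11143, 13463, 10480.5 and 5608 CPM in Fas-/- (0.78 ± 0.38 SE, adjusted p = 0.13). With the endothelial score in the fit it differed by 1.28 and passed (adjusted p = 0.029), which Col3a1 (0.82, adjusted p = 0.059) and Col1a2 (0.89, adjusted p = 0.054) did not. Without Fas-/- replicate 4, Col1a1 (0.97, adjusted p = 0.069), Col1a2 (0.59, adjusted p = 0.17) and Col3a1 (0.55, adjusted p = 0.18) also did not pass. For Col1a1, Fas-/- replicates 1 to 3 lay above every naive library and replicate 4 among them. Col3a1 showed the same layout, at 5409, 9673, 7077 and 10188 CPM and 11551, 13334, 10830.1 and 6582 CPM (0.39 ± 0.29 SE, adjusted p = 0.33), and Col1a2 differed by 0.43 ± 0.31 (adjusted p = 0.31). Of 16 fibrillar and fibril-associated collagens, 6 were higher and 1 lower (median 0.66), with 3 higher without Fas-/- replicate 2 or without naive replicate 1, 8 without Fas-/- replicate 4 and 9 with the endothelial score. Col11a1 moved most, at 0.302, 0.759, 0.334 and 1.13 CPM in naive and 17.5, 24.2, 16.1 and 8.31 CPM in Fas-/- (4.69 ± 0.88 SE). Col24a1 (3.53), Col2a1 (3.34), Col12a1 (1.29), Col5a3 (1.19) and Col5a2 (1.15) followed. Col14a1 fell (-0.88). Among 15 network, microfibrillar and transmembrane collagens, 3 were higher and 3 lower (20% each, against 17.2% and 14.8% of all genes). The counts were 5 and 1 without Fas-/- replicate 4, and 8 and 1 with the endothelial score. Without Fas-/- replicate 2, 1 network collagen was higher, and without naive replicate 4, 1 was lower. Col28a1 (2.42), Col7a1 (1.58) and Col8a1 (1.22) rose, Col6a5 (-1.62) and Col6a6 (-1.44) fell, and Col6a1 did not pass (0.00 ± 0.17 SE, adjusted p = 1.0). Leaving out single libraries ended the call of Col2a1 (without naive replicates 1, 2 or 3 or Fas-/- replicate 2, adjusted p up to 0.11), Col12a1 (without naive replicates 1, 2 or 3 or Fas-/- replicates 1, 2 or 3, adjusted p up to 0.0861), Col5a3 (without Fas-/- replicate 2, adjusted p 0.0504), Col5a2 (without naive replicate 1, adjusted p 0.0516), Col7a1 (without naive replicate 4 or Fas-/- replicate 2, adjusted p up to 0.0612), Col8a1 (without naive replicates 1, 2 or 3 or Fas-/- replicates 1, 2 or 3, adjusted p up to 0.0983) and Col6a5 (without naive replicates 2 or 4 or Fas-/- replicates 1, 2, 3 or 4, adjusted p up to 0.277).

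Genes for elastic fibers and for collagen processing split in direction. 5 of 17 elastic fiber genes were higher and 5 lower, with 3 higher without naive replicate 1, 7 without Fas-/- replicate 4 and 8 with the endothelial score. Eln, which encodes elastin, was at 2286, 4617, 3409 and 4547 CPM in naive and 7426, 8227, 7114 and 5745 CPM in Fas-/- (0.94 ± 0.27 SE, adjusted p = 0.014), higher in all 4 libraries. Fbn2, the fibrillin typical of developing tissue, rose by more (4.52), while Fbn1 did not pass (0.57 ± 0.24 SE, adjusted p = 0.082), and Ltbp4 (-1.02) and Emilin2 (-1.3) fell. Of 26 collagen folding, modifying and crosslinking genes, 4 were higher and 3 lower (15.4% and 11.5%, near the 17.2% and 14.8% of all genes). Without Fas-/- replicate 4, 8 were higher, without Fas-/- replicate 2, 1, and without naive replicate 1, 2. With the endothelial score 8 were higher and 1 lower. The prolyl hydroxylase subunit P4ha3 (2.1) and the procollagen peptidase Adamts14 (1.11) rose and the enhancer of procollagen cleavage Pcolce2 (-1.38) fell. The crosslinking enzymes Lox (0.56 ± 0.23 SE, adjusted p = 0.066) and Plod2 (0.32 ± 0.15 SE, adjusted p = 0.11) did not pass. Without 1 library, the call was lost for Eln (without naive replicate 1, adjusted p 0.061) and Adamts14 (without Fas-/- replicate 2, adjusted p 0.0542).

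Matricellular and provisional matrix genes rose more often than they fell (10 and 3 of 23, median 1.0; 13 and 3 without Fas-/- replicate 4, 13 and 1 with the endothelial score). Fibronectin (Fn1) was at 5872, 5816, 5915 and 6725 CPM in naive and 17977, 21211, 17501 and 8099 CPM in Fas-/- (1.41 ± 0.34 SE, adjusted p = 0.0050). Tenascin C (Tnc) was at 128, 173, 127 and 181 CPM and 1820.2, 2419, 1783 and 488 CPM (3.42 ± 0.60 SE), and osteopontin (Spp1) at 61.6, 45.5, 81.1 and 41.1 CPM and 2033, 2697, 1844 and 273 CPM (4.90 ± 0.72 SE). In all of them Fas-/- replicate 4 was the lowest of its group and above the naive libraries. Thbs4 (4.36), Tnn (3.52), the hyaluronan synthase Has2 (2.14) and Cilp (1.51) rose, whereas Postn, which encodes periostin, did not pass (-0.24 ± 0.27 SE, adjusted p = 0.54). Of 18 metalloproteinases and inhibitors, 9 were higher and 6 lower (4 lower without Fas-/- replicate 4 and 3 with the endothelial score). Without naive replicate 1, 6 were higher. Timp1 was at 15.9, 26, 21.4 and 24 CPM in naive and 267, 355, 249 and 101 CPM in Fas-/- (3.48 ± 0.58 SE), and Mmp2 rose by 0.69 ± 0.21 SE with overlap. The collagenases Mmp13 (4.72) and Mmp8 (3.20), the gelatinase Mmp9 (3.58) and Mmp10 (6.66) rose from at most 1.90 CPM in naive. Mmp12, an elastase known from macrophages, had no count in any naive library and 2.91, 2.89, 3.21 and 0.0510 CPM in Fas-/-, at least 69.7-fold higher against a floor of 3 counts over the naive group. Single libraries decided the call of Mmp2 (without naive replicate 1 or Fas-/- replicate 2, adjusted p up to 0.0792).

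Small leucine-rich proteoglycans, which bind collagen fibrils, mostly fell: 6 of 10 were lower and 1 higher. Decorin (Dcn) was at 935, 1339, 1081 and 1402 CPM in naive and 823, 803, 753 and 594 CPM in Fas-/- (-0.68 ± 0.19 SE, adjusted p = 0.012), with no overlap. Omd (-1.49), Ecm2 (-1.31), Aspn (-0.95) and Ogn (-0.94) fell, fibromodulin (Fmod) rose (1.11), and biglycan (Bgn) did not pass (0.25 ± 0.19 SE, adjusted p = 0.33). The call did not hold without 1 library for Fmod (without naive replicates 1, 2, 3 or 4 or Fas-/- replicates 1, 2 or 3, adjusted p up to 0.089).

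**Figure D5:**
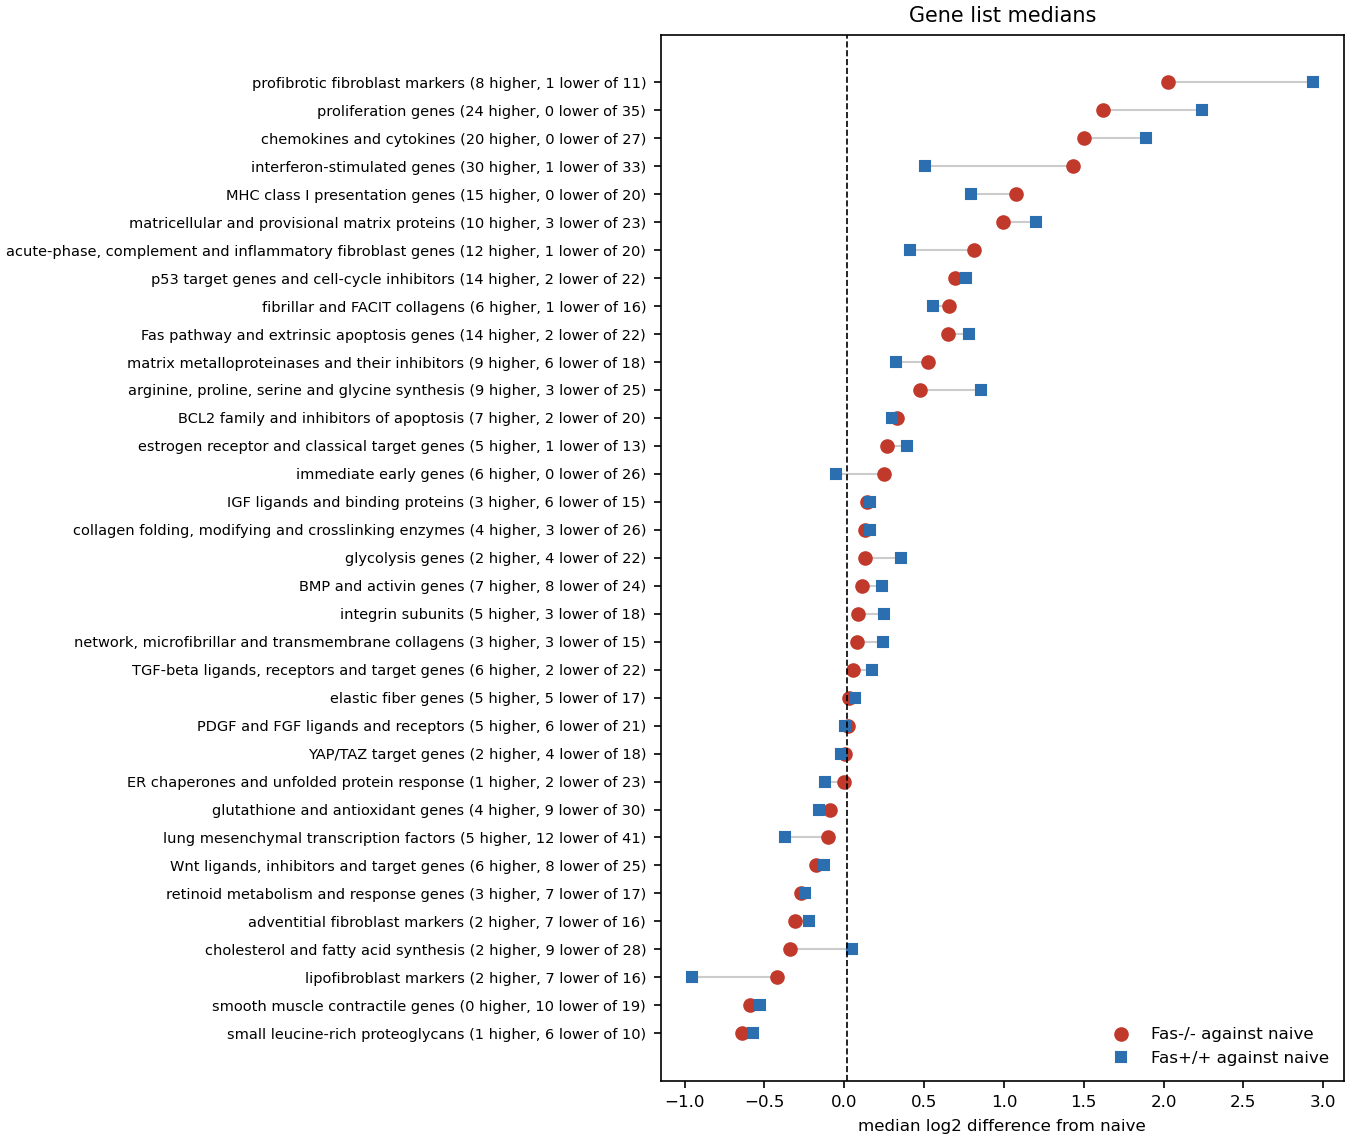
Median log2 difference from naive (x axis) over the tested genes of each gene list in Fas-/- (red) and Fas+/+ (blue), with the number of genes called higher and lower in Fas-/- beside each list. The dashed line at 0.02 is the Fas-/- median over all 15773 genes; both groups share the naive libraries.

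Contractile genes of smooth muscle fell or did not pass. 10 of 19 were lower and 0 higher, with a median of -0.59 (-0.53 in Fas+/+); 5 were lower without naive replicate 2 or in the 8 libraries alone and 8 without Fas-/- replicate 4, and with the endothelial score 6 were lower, 1 was higher and the median was -0.28. Acta2, which encodes alpha smooth muscle actin, was at 1202, 2079, 1674 and 1617 CPM in naive and 1244, 1292, 1197 and 489.6 CPM in Fas-/- (-0.64 ± 0.24 SE, adjusted p = 0.048). Replicates 1 to 3 lay within or just below the naive range and replicate 4 well below it. Myh11, the smooth muscle myosin heavy chain, was at 1060.4, 1648, 1238 and 1212 CPM and 772, 804, 827 and 349 CPM (-0.91 ± 0.22 SE), with no overlap. Lmod1 (-1.08), Synpo2 (-0.92), Actc1 (-0.87), Myl9 (-0.80) and Cnn1 (-0.80) also fell. Pericyte markers fell beside them (8 of 12; 5 without naive replicate 1 or in the 8 libraries alone, 6 without Fas-/- replicate 4 and 3 with the endothelial score), among them Higd1b (-0.86) and Notch3 (-0.83), and Cox4i2 (-0.60 ± 0.23 SE, adjusted p = 0.050). Calls that were lost when 1 library was left out were those of Acta2 (without naive replicates 2, 3 or 4 or Fas-/- replicates 3 or 4, adjusted p up to 0.145), Actc1 (without naive replicate 2, adjusted p 0.0857), Cnn1 (without naive replicate 2, adjusted p 0.0766), Higd1b (without naive replicate 1, adjusted p 0.0615) and Cox4i2 (without naive replicates 1, 2 or 3 or Fas-/- replicates 1, 3 or 4, adjusted p up to 0.118).

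Markers of lipofibroblasts and of adventitial fibroblasts, the main fibroblast types of the resting lung, were more often lower. Of 16 lipofibroblast genes, 7 were lower and 2 higher (median -0.42), against a median of -0.96 in Fas+/+. Inmt, a methyltransferase of alveolar fibroblasts, was at 3651, 3002, 3375 and 3478 CPM in naive, 1516, 1105, 1608 and 1426 CPM in Fas-/- and 1419, 618, 595 and 890.3 CPM in Fas+/+ (log2 difference of Fas-/- from naive -1.26). Slc7a10 (-1.51), the Wnt ligand Wnt2 (-0.68), Limch1 (-0.66) and Fgf10 (-0.64), a growth factor for the alveolar epithelium, fell too. Tcf21, the transcription factor that marks the lineage, was at 351, 237, 268 and 262 CPM in naive and 216, 185, 234 and 120.3 CPM in Fas-/- and did not pass (-0.57 ± 0.22 SE, adjusted p = 0.061). The 2 that went the other way were lipid genes. Lipoprotein lipase (Lpl) rose (2.35), and the lipid droplet coat Plin2 was at 83.3, 76.3, 77.7 and 88.0 CPM and 109, 112, 113 and 84.4 CPM (0.36 ± 0.09 SE, adjusted p = 0.0056), with overlap through replicate 4. Pparg and Fabp4, also in the list, were not called higher. Of 16 adventitial genes, 7 were lower and 2 higher (9 and 0 without Fas-/- replicate 4). Pi16 was at 297, 606, 477 and 713 CPM in naive and 211, 213, 209.8 and 221 CPM in Fas-/- (-1.29 ± 0.20 SE, adjusted p = 1.7e-04), with the Fas-/- libraries almost level. Clec3b (-0.93), Rbp4 (-1.19) and Col14a1 (-0.88) fell, and the 2 that rose were Ly6c1 (2.66) and Ly6a (1.74), both highest in the replicate with the most endothelial RNA. With the endothelial score in the fit, Ly6a differed by -0.16 and was not called. Leaving out single libraries ended the call of Ly6c1 (without Fas-/- replicate 4, adjusted p 0.0712) and Ly6a (without naive replicates 1 or 3 or Fas-/- replicate 4, adjusted p up to 0.158).

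Signaling genes had no common direction. For TGF-beta, 6 of 22 ligands, receptors and targets were higher and 2 lower (median 0.05). The ligand Tgfb1 was at 32.6, 37.5, 39.3 and 39.4 CPM in naive and 143, 157, 129 and 123 CPM in Fas-/- (1.89 ± 0.17 SE, adjusted p = 1.3e-06). The target Bhlhe40 (2.0) rose, and the target Tgfbi (-1.42) and the coreceptor Tgfbr3 (-0.98) fell. For BMPs and activins, 7 were higher and 8 lower of 24 (5 lower without naive replicate 2). The ligand Bmp4 fell (-0.78) and the antagonists Grem1 (6.18), Fst (2.20) and Nog (1.32) rose, with the activin subunits Inhba (2.22) and Inhbb (1.93); the target Id1 did not pass (0.78 ± 0.43 SE, adjusted p = 0.18). Bmp6 rose (3.60) but was at 13.8 to 30.6 CPM in replicates 1 to 3 and 249 CPM in replicate 4, and it differed by -0.22, not called, with the endothelial score in the fit. Without 1 library, the call was lost for Nog (without naive replicates 1 or 2 or Fas-/- replicates 1, 2 or 3, adjusted p up to 0.0955) and Bmp6 (without Fas-/- replicate 4, adjusted p 0.132).

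In the Wnt list 6 were higher and 8 lower of 25. The antagonists Frzb (4.71), Dkk2 (3.92) and Sfrp1 (2.36) rose, and the target Axin2 was at 152, 132, 152 and 124 CPM in naive and 103, 97.9, 100 and 82.8 CPM in Fas-/- (-0.55 ± 0.10 SE, adjusted p = 7.9e-04). Of 21 PDGF and FGF genes, 5 were higher and 6 lower (7 higher without Fas-/- replicate 4). Pdgfra, the receptor that marks lung fibroblasts, was at 2099.5, 1829, 2069 and 2148 CPM and 1403, 1346, 1562 and 1081 CPM (-0.60 ± 0.14 SE, adjusted p = 0.0033), and Pdgfrb did not pass (-0.35 ± 0.21 SE). The ligands Pdgfb (3.48), highest in replicate 4 at 229.6 CPM, and Pdgfc (1.63) rose, and Fgfr4 (-1.21) and Fgf9 (-1.17) fell. Single libraries decided the call of Fgf9 (without naive replicate 4, adjusted p 0.058).

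The insulin-like growth factor binding proteins moved far in both directions, within a list that had 3 higher and 6 lower of 15 (5 higher without Fas-/- replicate 4, and 8 higher and 5 lower with the endothelial score). Igfbp2 was at 7.32, 4.35, 9.36 and 7.32 CPM in naive and 75.5, 66.9, 73.3 and 44.7 CPM in Fas-/- (3.20 ± 0.23 SE, adjusted p = 2.4e-07). Igfbp3 was at 663, 643, 710.4 and 616 CPM and 195, 142, 213 and 164 CPM (-1.88 ± 0.30 SE, adjusted p = 2.5e-04). Neither overlapped. Igfbp5 (-1.03), Igfbp6 (-1.18) and the ligand Igf2 (-1.22) fell, the protease Pappa2 rose (1.06), and Igf1 did not pass (0.75 ± 0.34 SE, adjusted p = 0.095). Among 17 retinoid genes, 3 were higher and 7 lower. Cyp26b1, which degrades retinoic acid, rose (2.20), as did the receptor for retinol transport Stra6 (1.76), and the retinol esterifying enzyme Lrat (-1.35), Aldh1a1 (-0.72) and the receptor Rarb (-0.89) fell. Adh1, an alcohol dehydrogenase that oxidizes retinol, was at 421, 359, 464 and 371 CPM in naive, 433, 380.3, 397 and 318 CPM in Fas-/- and 218, 205, 179.9 and 231 CPM in Fas+/+. It did not differ from naive in Fas-/- (-0.08 ± 0.11 SE, adjusted p = 0.63) and exceeded Fas+/+ by 0.87 ± 0.11 SE (adjusted p = 0.0078). The call did not hold without 1 library for Pappa2 (without naive replicates 1, 2 or 3 or Fas-/- replicates 1, 2 or 3, adjusted p up to 0.176), Stra6 (without naive replicates 1, 2 or 3 or Fas-/- replicates 1 or 2, adjusted p up to 0.0724) and Rarb (without naive replicate 4 or Fas-/- replicates 1 or 3, adjusted p up to 0.0706).

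Of 41 transcription factors of the lung mesenchyme, 5 were higher and 12 lower, with 3 higher without naive replicate 1, 3 or 4, in the 8 libraries alone or with a replicate block, and 8 higher and 7 lower with the endothelial score. The Runx factors Runx1 (2.83) and Runx2 (2.35) and Meox1 (1.77) rose, Foxf1 rose through replicate 4 above all (178, 135, 143 and 734 CPM against 93.8, 123, 103 and 91.9 CPM in naive, and a difference of -0.27, not called, with the endothelial score), and Twist2 (-1.08), Ebf2 (-1.10) and Tbx4 (-0.35) fell. Of 18 integrin subunits, 5 were higher and 3 lower (1 lower in a fit to the 8 libraries alone and 5 with library totals alone). The fibronectin receptor subunit Itga5 (1.54), Itgb6 (3.29), Itga2 (2.87) and Itga6 (2.5, but -0.10 with the endothelial score) rose, Itga8 (-0.87) and Itga4 (-0.86) fell, Itgb1 rose by 0.21 ± 0.07 SE and Itgav did not pass (0.11 ± 0.14 SE). YAP/TAZ targets had 2 higher and 4 lower of 18 (11.1% and 22.2%, against 17.2% and 14.8% of all genes), and 2 lower without naive replicate 1 or in the 8 libraries alone. Nt5e (CD73) differed by 1.85, and neither Ccn1 (-0.47 ± 0.20 SE, adjusted p = 0.077) nor Ankrd1 (0.12 ± 0.35 SE, adjusted p = 0.83) passed the test. Immediate early genes, which also respond to tissue dissociation, had 6 higher and 0 lower of 26; without Fas-/- replicate 4, 4 were lower, and with the endothelial score 2. Fos (-0.28 ± 0.20 SE, adjusted p = 0.30) and Egr1 (-0.34 ± 0.23 SE, adjusted p = 0.28) did not pass, and Fosl1 (2.99), Ier3 (2.18), Egr3 (1.37), Egr2 (1.3) and Myc (1.15) rose. Calls that were lost when 1 library was left out were those of Foxf1 (without naive replicates 1, 3 or 4 or Fas-/- replicate 4, adjusted p up to 0.281), Ebf2 (without naive replicate 4 or Fas-/- replicates 1 or 4, adjusted p up to 0.14), Tbx4 (without naive replicates 1, 2 or 3 or Fas-/- replicate 4, adjusted p up to 0.0643), Itga6 (without Fas-/- replicate 4, adjusted p 0.107), Itgb1 (without naive replicates 1 or 4 or Fas-/- replicates 1, 2 or 3, adjusted p up to 0.149) and Myc (without naive replicate 1 or Fas-/- replicate 2, adjusted p up to 0.065).

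Tamoxifen, which only the Fas-/- mice of the bleomycin groups received, acts on estrogen receptors. Of 13 estrogen receptor genes and classical targets, 5 were higher and 1 lower than naive (3 higher without naive replicate 1 or in the 8 libraries alone). The median log2 difference from naive was 0.26 in Fas-/- and 0.40 in Fas+/+, whose mice received corn oil. Esr1 fell (-0.59), Ccnd1 rose from 21 ± 7.40 to 91.5 ± 38.9 CPM (2.12) and Areg had no count in any naive library and 1.24, 2.63, 1.22 and 0.459 CPM in Fas-/-, at least 42.6-fold higher against 3 counts over the group. Pgr, the progesterone receptor, rose (2.83) through replicate 4, at 7.44 CPM against 0.438 to 1.18 CPM in replicates 1 to 3, and differed by -0.45, not called, with the endothelial score. None of the 13 passed the test of Fas-/- against Fas+/+. Leaving out single libraries ended the call of Esr1 (without naive replicates 2 or 4 or Fas-/- replicate 4, adjusted p up to 0.0617) and Pgr (without naive replicates 1, 3 or 4 or Fas-/- replicate 4, adjusted p up to 0.31).

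Proliferation genes were higher in 24 of 35 cases and lower in 0 (median 1.62 in Fas-/- and 2.24 in Fas+/+). Top2a, the topoisomerase of dividing cells, was at 1.68, 3.11, 4.11 and 9.22 CPM in naive and 26.2, 29.4, 21.3 and 6.62 CPM in Fas-/- (2.20 ± 0.64 SE, adjusted p = 0.015). Mki67 was at 8.83, 10.5, 14.2 and 42.3 CPM and 44.1, 56.2, 46.5 and 14.6 CPM and did not pass (1.09 ± 0.57 SE, adjusted p = 0.15). In both genes naive replicate 4 was the highest naive library and Fas-/- replicate 4 the lowest Fas-/- library, and these overlapped. The mitotic genes Kif23 (2.70), Kif20a (2.38), Aurkb (2.34), Ccnb1 (2.18) and Cdk1 (2.14) rose; without Fas-/- replicate 4, 26 of the list were higher, with the endothelial score 28, without naive replicate 1 16, without naive replicate 2 or Fas-/- replicate 2 17 and without Fas-/- replicate 1 18. Of the 19 called genes with a promoter in the RefSeq table, 11 (57.9%) held the letters TTTGAA of the cell-cycle homology region and 17 (89.5%) held CCAAT, on either strand of the 300-base window, against 20.2% and 41.1% of all genes with a promoter. Without 1 library, the call was lost for Top2a (without naive replicate 1, adjusted p just over 0.05) and Ccnb1 (without naive replicates 1 or 2 or Fas-/- replicate 2, adjusted p up to 0.0718).

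Metabolic lists held genes of both directions. In the list of arginine, proline, serine and glycine synthesis, 9 of 25 were higher and 3 lower (median 0.47). Ass1, which makes argininosuccinate for arginine synthesis, was at 5.08, 4.75, 6.11 and 5.41 CPM in naive and 37.2, 38.3, 27.5 and 31.8 CPM in Fas-/- (2.66 ± 0.20 SE, adjusted p = 2.5e-07). The asparagine synthetase Asns (1.61), the amino acid carrier Slc7a5 (1.56), Ddit4 (1.49), Chac1 (1.43) and Mthfd2 (1.11) rose, and Phgdh, the first enzyme of serine synthesis, did not pass (0.46 ± 0.30 SE, adjusted p = 0.26). The letters TGATGNAA of the amino acid response element stood in the promoters of 3 of 8 genes of this list called higher (37.5%). They also stood in 1 of 1 called lower, in 2 of 12 not called (16.7%) and in 4.51% of all genes with a promoter. ER chaperone and unfolded protein response genes changed little with all libraries, with 1 higher and 2 lower of 23 and a median of 0.00 (3 higher without Fas-/- replicate 4, 5 with the endothelial score, and 5 lower with library totals alone); Hspa5 (-0.18 ± 0.18 SE, adjusted p = 0.47) and Xbp1 (-0.07 ± 0.11 SE, adjusted p = 0.65) did not pass. Single libraries decided the call of Ddit4 (without naive replicates 1, 2 or 3, adjusted p up to 0.0682) and Mthfd2 (without naive replicates 1, 2, 3 or 4 or Fas-/- replicates 1, 2 or 3, adjusted p up to 0.154).

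Cholesterol and fatty acid synthesis had 2 genes higher and 9 lower of 28. The median was -0.34 in Fas-/- and 0.05 in Fas+/+, each against naive, and 0 of the 28 passed against Fas+/+. Sc5d (-1.17), Insig1 (-1.0) and Lss (-0.87) fell, and Fasn did not pass (-0.34 ± 0.14 SE, adjusted p = 0.075). Of 30 glutathione and antioxidant genes, 4 were higher and 9 lower, with 2 higher without Fas-/- replicate 1 or 2: the glutathione transferases Gsta3 (-1.17), Gstm1 (-1.13) and Gsta4 (-0.94) fell, heme oxygenase Hmox1 (1.33) and Sod2 (0.72) rose, and Gpx3 (-0.23 ± 0.11 SE) and Nqo1 (-0.17 ± 0.14 SE) did not pass. Of 22 glycolysis genes, 2 (9.09%) were higher, the hexokinase Hk2 (1.84) and Ldha (0.65), and 4 (18.2%) lower, among them Ldhb (-0.65). Of all genes, 17.2% were higher and 14.8% lower. With the endothelial score 5 glycolysis genes were higher and 3 lower. The call did not hold without 1 library for Ldha (without Fas-/- replicate 2, adjusted p 0.0598).

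Besides the interferon genes, 19 genes passed the test of Fas-/- against Fas+/+, named because they passed it. The 18 that were higher in Fas-/- were chosen on the same Fas+/+ libraries, so a low Fas+/+ level was partly fixed by the choice. Fas-/- lay between the means of Fas+/+ and naive for 13 of the 18, from which nothing is concluded. Apoe, the lipid carrier, was at 1316, 1132, 1339 and 1328 CPM in naive, 1348, 1134, 1354 and 1469 CPM in Fas-/- and 767, 695, 699.8 and 867 CPM in Fas+/+ (0.81 ± 0.12 SE, adjusted p = 0.0085). The related Apoc1 (1.40) and the cholesterol exporter Abca1 (0.67) were also higher than in Fas+/+; Abca1 was at 174 ± 11.3 CPM in naive, 265 ± 62.2 CPM in Fas-/- and 166 ± 17.7 CPM in Fas+/+ (SD, n = 4), so here Fas-/- exceeded both other groups. Phex (0.79) had the same order. The largest difference was in the atrial myosin light chain Myl7, at 3.27, 7.03, 6.11 and 3.25 CPM in naive, 6.56, 6.70, 5.69 and 6.27 CPM in Fas-/- and 1.23, 1.05, 0.975 and 2.99 CPM in Fas+/+ (1.99). Adh1 (0.87), the amino acid transporters Slc36a2 (0.77), Slc38a5 (0.75) and Slc43a2 (0.46), cysteine dioxygenase Cdo1 (0.73), the glycerol-3-phosphate acyltransferase Gpam (0.49), Grin2c (0.86), Astn2 (0.64), Pir (0.49), Tmem132c (0.64), Fam198a (0.46), Nav2 (0.55) and Nebl (0.59) made up the rest of those that were higher. Vwa1, an extracellular matrix protein, was the 1 gene that was lower, at 23.4, 21.3, 19.5 and 23.4 CPM in naive, 11.6, 9.59, 11.4 and 13.5 CPM in Fas-/- and 16.4, 23.4, 21.2 and 22 CPM in Fas+/+ (-0.85 ± 0.14 SE, adjusted p = 0.023). The number of genes that passed this test was 582 without Fas-/- replicate 4, 219 without Fas+/+ replicate 1, and 5 and 8 without Fas-/- replicates 1 and 3.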

How the data were processed

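Lin- lung cells were profiled by bulk stranded mRNA-seq. Per the paper's methods, the authors used skewer for quality trimming, Hisat2 for alignment (GRCm38) and htseq-count for counting over Ensembl genes. The strand setting of the counting was not given in the sources used here. The deposited table of raw counts (47729 genes, 20 libraries) was used, and the deposited normalised table and single-cell files were not. Groups followed the sample labels.

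All 20 libraries (5 groups of 4) were fitted with edgeR 4.0.16 (R 4.3.3): filterByExpr with its default minimum count of 10 (15773 genes kept), TMM scaling and the quasi-likelihood F test with Benjamini-Hochberg adjustment over all genes tested and a threshold of 0.05. CPM are TMM-normalised, and log2 CPM used a prior count of 2. Differences are given with standard errors. In simulated counts 200 of 15773 genes were changed, and 65% of those changed by 1 and 87% of those changed by 2 on the log2 scale were recovered. The data held far more called genes, and the simulated Fas-/- libraries shared the same means, with none set apart like replicate 4. The rates therefore do not give the recovery in this comparison.

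The named genes are the 10 with the smallest p in each direction, the 10 largest non-overlapping changes in each direction with a mean of at least 10 CPM, Fas, and from each of 46 lists its defining genes and up to 6 called members (mean at least 1 CPM), with the exceptions stated; a few genes that the rule names are not reported here. Members and lists were chosen with earlier results of these data known. The lists were described by their counts and medians, and no test was run on any list as a whole. Alternatives were RLE factors, library totals, other filters, the 8 libraries alone, a replicate block, an endothelial covariate, DESeq2 1.42.0 and leaving out each library. Promoter motifs were searched on both strands of RefSeq promoters (GRCm38.p6).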

Additional observations from a re-analysis of the deposited data

Results flagged for a closer look

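Over 52 genes with a value printed per library and the summed levels of the 46 lists, 196 groups of 4 libraries were checked for 1 library far from the others, taken as a gap to the nearest library, as a share of the group's range, above Dixon's critical value. Chance gives about 1 such group in 20 where groups are independent and their values normally distributed. These groups share libraries and list members, and the levels were not log-transformed, so that rate cannot be set against the count. Such a library was found in 30 groups, and Fas-/- replicate 4 was the far library in 23 of them. Among genes, replicate 4 was far above its group for Pecam1 (0.943), Tnfsf10 (0.94), Nlrc5 (0.955), Cxcl12 (0.885) and Foxf1 (0.928), and far below for Mmp12 (0.898), Acta2 (0.882), Myh11 (0.884) and Plin2 (0.876), each with the gap as a share of the range. Among summed lists it was far above for p53 target genes and cell-cycle inhibitors (0.873), Fas pathway and extrinsic apoptosis genes (0.93), BCL2 family and inhibitors of apoptosis (0.991), MHC class I presentation genes (0.859), lung mesenchymal transcription factors (0.905), immediate early genes (0.875), blood endothelial markers (0.938), lymphatic endothelial markers (0.957) and nerve and glial markers (0.928). It was far below for matrix metalloproteinases and their inhibitors (0.8291), small leucine-rich proteoglycans (0.95), smooth muscle contractile genes (0.907), IGF ligands and binding proteins (0.831) and pericyte markers (0.895). Its endothelial sum was 15619 CPM, and what part that had in the other values was not tested. Fas-/- replicate 3 was far above for mesothelial markers (0.834). In the naive group the far library was replicate 4 for Fn1 (0.891, high), replicate 4 for Mki67 (0.839, high), replicate 2 for Apoe (0.888, low), replicate 1 for matrix metalloproteinases and their inhibitors (0.868, low), replicate 4 for glutathione and antioxidant genes (0.844, high) and replicate 4 for lung mesenchymal transcription factors (0.925, low).

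Both week 3 bleomycin groups were compared with the same naive libraries, and their effects differed for 27 genes (edgeR quasi-likelihood test of Fas-/- against Fas+/+, adjusted p at most 0.05). On the log2 scale, interferon genes were higher in Fas-/-, among them Gbp3 (0.94), Ifi27l2a (1.59), Ifit3 (1.18), Irf7 (1.10), Oasl2 (1.03), Stat2 (0.76) and Usp18 (1.05). So were Abca1 (0.67), Adh1 (0.87), Apoc1 (1.40), Apoe (0.81), Astn2 (0.64), Cdo1 (0.73), Fam198a (0.46), Gpam (0.49), Grin2c (0.86), Myl7 (1.99), Nav2 (0.55), Nebl (0.59), Phex (0.79), Pir (0.49), Slc36a2 (0.77), Slc38a5 (0.75), Slc43a2 (0.46) and Tmem132c (0.64). Vwa1 was lower (-0.85). By this test 0 of the 27 passed without Fas+/+ replicate 2 or 3. Fas-/- mice received tamoxifen and Fas+/+ mice corn oil, so the drug and the loss of Fas cannot be told apart.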

How the results depend on the processing

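Between Fas-/- and Fas+/+ 27 genes were called, and under alternatives added after the data were seen the number was 45 with a replicate block, 163 with DESeq2, 19 to 40 under the other settings of the fit, and 0 to 582 when 1 library was left out. The replicate block gave 2487 higher and 2271 lower genes against naive, and 232 of the 236 named genes called kept their call in it. The numbers do not pair the libraries: the deviations of same-numbered libraries correlated at -0.15 to 0.033 over genes, and only naive replicate 3 correlated best with its own number. Against naive, 2713 genes were higher and 2332 lower. The counts were 2725 and 2339 with RLE factors, 2399 and 2629 with library totals alone (47.7% of calls higher, against 53.8%), and 2450 and 1914 without the filter. They were 2580 and 2335 at 1 CPM or more in 4 libraries, 2122 and 1982 in the 8 libraries alone, 2314 and 1952 with the endothelial covariate, and 2997 and 2439 with DESeq2. With 1 naive or Fas-/- library left out they were 1989 to 2402 and 1909 to 2400. With 1 Fas+/+ library left out, which shares the fit, they were 2608 to 3196 and 2249 to 2772, the most without replicate 1. With a further minimum of 1 on the log2 scale, 1378 and 468 remained. With the endothelial covariate the differences of Ly6a (-0.16), Bmp6 (-0.22), Tnfsf10 (-0.10), Foxf1 (-0.27), Itga6 (-0.10) and Pgr (-0.45) reversed, 31 other named calls were lost and 7 were gained; the cause was not tested. Leaving out 1 naive or Fas-/- library lost 12 to 24 of the 236 named calls and reversed none. Depth limited which genes could be tested: Fasl had too few counts, and 5 of 11 airway and 14 of 23 leukocyte markers were tested.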
